A study of Mus musculus with 50 samples.

Results

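Macrophage identity genes are 10 genes whose products mark macrophages or a kind of macrophage. They were taken by name from 21954 genes in the expression tables. The rule used no measured value, but the list was chosen with earlier results of these data known. The list comprised Csf1r, Adgre1, Adgre4, Cd68, Itgam, Fcgr1, Cx3cr1, Gpr34, Cd163 and Lyve1. RNA-seq of wound beds of the mouse distal terminal phalanx (P3) and of cultured macrophages was used to follow them.

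The digits came from male C57Bl/6 mice of 9 to 10 weeks, in which P3 of hindlimb digit 3 was amputated on both sides. The labels describe the tissue as mixed cells around the wound. In the 29 non-regenerative digits (NR), the labelled amputation level was 60 to 80%, and collection was at 0, 3, 6, 12 and 24 hours and at 3, 7, 14 and 21 days, with 5 digits at 7 days and 3 at every other time. The study set non-regenerative amputation at more than 67% of P3, and some NR digits were labelled at or below this, among them all 3 at 12 hours (64 to 67%). Most of these fall within the range that the study set for intermediate digits. In the 12 intermediate digits (INT), the level was 41 to 55%, and there were 3 digits each at 0 hours, 24 hours, 14 days and 21 days. Bone marrow-derived macrophages (BMDMs) were grown from female C57BL/6 mice of 6 to 8 weeks for 7 days in medium conditioned by L929 cells, a fibroblast line that secretes CSF1. The 3 M0 cultures then received basal medium, the 3 M1 cultures received 20 ng/ml IFN-γ and 100 ng/ml LPS, and the 3 M2 cultures received 20 ng/ml IL-4. The labels give 24 hours for M1 and M2, and they call M0 baseline and give it no time. If M0 was collected before those 24 hours, time in basal medium and the stimulus cannot be told apart in comparisons with M0. Whether the replicate cultures came from separate mice was not stated, so their p-values measure the spread between these cultures.

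Macrophages are phagocytes that arise from embryonic precursors or from blood monocytes and depend on signals through the CSF1 receptor. IFN-γ and LPS drive BMDMs into a pro-inflammatory state termed M1, whereas IL-4 drives an alternative state termed M2. In a wound, resident macrophages are joined by neutrophils and monocytes, and monocytes change their surface receptors as they mature into macrophages.

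RefSeq promoter sequences (GRCm38.p6) matched 6 of the 10 members, and the 250 bases before the annotated start were searched on both strands. Shown here are the promoters of the members that rose in M1 macrophages (Fcgr1 and Itgam) and of the pair that fell furthest there (Adgre4 and Cd163), each read 5′ to 3′ along its gene. Capitals mark matches on either strand to GAGGAA, a core read by the macrophage factor PU.1.
Fcgr1, chr3:96293970-96294219 (- strand): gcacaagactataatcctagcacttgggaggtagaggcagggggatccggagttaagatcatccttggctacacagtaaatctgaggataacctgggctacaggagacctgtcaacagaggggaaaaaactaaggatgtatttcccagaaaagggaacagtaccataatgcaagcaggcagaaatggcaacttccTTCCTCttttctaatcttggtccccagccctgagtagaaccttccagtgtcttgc
Itgam, chr7:128062390-128062639 (+ strand): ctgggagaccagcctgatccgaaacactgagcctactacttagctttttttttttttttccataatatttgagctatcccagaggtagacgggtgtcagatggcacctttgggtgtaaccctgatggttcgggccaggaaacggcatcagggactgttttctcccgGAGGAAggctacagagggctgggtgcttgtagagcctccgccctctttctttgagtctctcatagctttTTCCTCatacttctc
Adgre4, chr17:55749734-55749983 (+ strand): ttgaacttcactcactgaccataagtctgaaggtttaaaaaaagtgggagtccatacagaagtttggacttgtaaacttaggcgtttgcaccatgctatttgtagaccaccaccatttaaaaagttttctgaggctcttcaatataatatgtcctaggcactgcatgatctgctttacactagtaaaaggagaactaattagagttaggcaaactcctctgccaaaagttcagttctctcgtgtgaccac
Cd163, chr6:124304401-124304650 (+ strand): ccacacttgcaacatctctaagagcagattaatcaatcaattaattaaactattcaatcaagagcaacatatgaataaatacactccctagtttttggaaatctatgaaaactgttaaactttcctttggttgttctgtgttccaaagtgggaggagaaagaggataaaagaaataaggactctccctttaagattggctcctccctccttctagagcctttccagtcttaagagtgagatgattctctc
GAGGAA was found in 3 of the 6 promoters, those of Cd68, Itgam and Fcgr1, and in 23.3% of 32851 mouse promoters of the same length. The STAT6 pattern, TTC and GAA with 4 bases between them, was found in 0 of the 6 and in 5.85% of all promoters. No match overlapped another. A match describes letters, not a bound site, and these windows say nothing about factors that act elsewhere.

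Total expected counts, the reads that the authors' counting assigned to genes, ranged from 1468749 to 13011782 in the 41 digits and from 15683424 to 27904773 in the 9 macrophage libraries. NR replicate 3 at 3 hours had the lowest total. The levels below are normalized TPM, where TPM is a gene's share of a library's transcripts after correction for length and the authors rescaled it between libraries. In NR replicate 2 at 14 days this column summed to 3362791, against 795701 to 1434851 in the other 40 digits, so its CPM, counts scaled to library size by TMM, are given where a result rests on it. The labels of INT replicate 1 and NR replicate 3 at 14 days share an animal mark, a date and a side. Some digits of different times share them too. Each NR digit at 12 hours does so with a digit at 0 hours, and NR replicate 3 at 3 days with NR replicate 1 at 7 days. Whether a label is wrong or a mark was used more than once cannot be told from the labels. A date stands in each digit label, earlier for 24 digits and later for 17, and what was done on it was not stated. Keratinocyte markers (Krt5, Krt14, Krt10 and Krt1) summed to between 21051 and 59566 normalized TPM in 40 digits and to 116437 in the digit with the unusual scaling, with no marker of the 4 at 0. In BMDMs they summed to at most 1.67 normalized TPM, and Krt5 and Krt1 were at 0 in every library.

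The 10 genes lie on 8 chromosomes of GRCm38. Csf1r, the receptor for CSF1 and IL-34, is on chromosome 18 (61100598 to 61132149). Adgre1, which encodes F4/80, and Adgre4, a related adhesion receptor, are both on chromosome 17 (57358691 to 57483527 and 55749984 to 55853662). Itgam, encoding the integrin CD11b, and Lyve1, encoding a hyaluronan receptor, are both on chromosome 7 (128062640 to 128118491 and 110850607 to 110863239). Cd68, encoding a lysosomal glycoprotein, is on chromosome 11 (69664213 to 69666153), and Fcgr1, encoding the high-affinity IgG receptor CD64, is on chromosome 3 (96282909 to 96293969). Cx3cr1, the fractalkine receptor gene, is on chromosome 9 (119901616 to 120069879), and Cd163, encoding the scavenger receptor for haptoglobin-haemoglobin complexes, is on chromosome 6 (124304656 to 124330527). Gpr34, encoding a receptor for lysophosphatidylserine, is on chromosome X (13632089 to 13640858). Exons of Csf1r and of Cx3cr1 overlap those of Hmgxb3 and Gm33858 on the other strand, exons of Itgam overlap Gm49368 on the same strand, and Gpr34 lies opposite Cask. Whether the counting used strand was not given in the sources used here, so reads of these overlaps cannot be told apart.

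M0 BMDMs were compared with M1 and with M2 to describe the identity genes in each state. In M0, the levels of Cd68, Csf1r and Adgre1 were the highest of the 10 members, at 1819 ± 60.2, 1561 ± 78.4 and 895 ± 62.5 normalized TPM (SD, n = 3). Itgam, Fcgr1 and Gpr34 followed at 226 ± 21.1, 125 ± 11.5 and 104 ± 10.2 normalized TPM. Adgre4, Cx3cr1 and Cd163 stood at 22.0 ± 1.42, 21.8 ± 2.90 and 14.4 ± 1.44 normalized TPM, and the ranges of Adgre4 and Cx3cr1 overlapped. Lyve1 was near absent, at 0.271 to 0.393 normalized TPM and 11 to 15 counts a library.

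**Figure D1:**
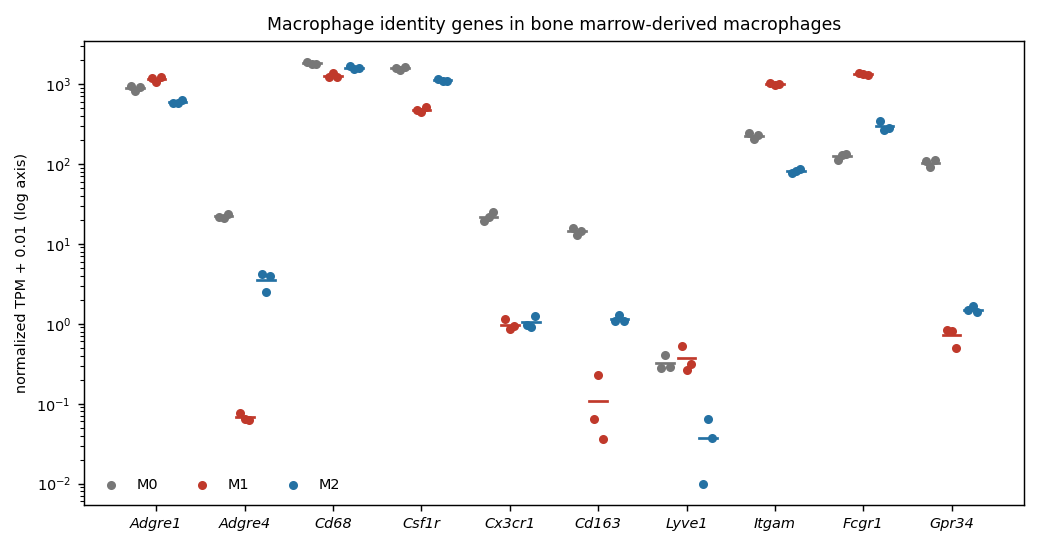
Normalized TPM plus 0.01 (log axis) of the 10 genes in M0, M1 and M2 BMDMs. Points are the 3 cultures of each state and short lines are means. The lowest point among Adgre1, Cd68 and Csf1r was Csf1r in 1 M1 culture, at 440 normalized TPM, whereas Adgre4, Cx3cr1, Cd163 and Gpr34 lay highest in M0.

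In M1, 7 of the 10 members changed: Fcgr1 and Itgam rose, and Adgre4, Cd163, Gpr34, Cx3cr1 and Csf1r fell. A call required a Benjamini-Hochberg adjusted p under 0.05 over all tested genes in edgeR's quasi-likelihood test and a more than 2-fold change of mean normalized count plus 1. By this rule 46.1% of the 12939 genes tested were called in M1 against M0, 20.1% as higher and 26% as lower. The median log2 fold change was -1.27 over the members and -0.09 over all genes tested.

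Fcgr1 was at 112, 131 and 133 normalized TPM in the M0 cultures and at 1368, 1329 and 1310 in the M1 cultures. Its lowest M1 value was far above its highest M0 value. The increase was 10.6-fold (log2 3.41 ± 0.07 SE, adjusted p = 6.28e-13). Itgam, the alpha chain of complement receptor 3 on macrophages, monocytes and neutrophils, was at 244, 203 and 231 normalized TPM in M0 and at 1038, 958 and 997 in M1. The groups did not overlap, and the increase was 4.31-fold (log2 2.106 ± 0.064 SE, adjusted p = 1.19e-11). Neutrophil markers went the other way: 7 of the 9 tested fell and 1 rose in M1, and their sum over 10 markers was 161 to 194 normalized TPM, against 461 to 479 in M0.

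Csf1r fell to 475, 440 and 515 normalized TPM in M1 from 1565, 1480 and 1637 in M0. This was a log2 change of -1.70 ± 0.06 SE (adjusted p = 9.65e-11), so the level in M1 remained far above those of Adgre4, Cx3cr1, Cd163, Lyve1 and Gpr34. The remaining 4 decreases left few counts in M1, at most 36 in a library for Cx3cr1 and 15 for Gpr34. For Adgre4 and Cd163 they took transcripts close to the limit of detection. Adgre4 had 1238, 970 and 1132 counts in M0 and 2, 1 and 2 counts in M1. Per unit of depth the M0 total was 373 times the M1 total (95% exact counting interval 160 to 1149). Cd163 had 1082, 713 and 819 counts in M0 and 2, 4 and 1 in M1, a ratio of 208 (101 to 519). These intervals cover counting error only.

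Gpr34 was at 109, 92.1 and 110 normalized TPM in M0 and at 0.8366, 0.7997 and 0.4926 in M1, a 140-fold decrease (log2 -7.13 ± 0.13 SE, adjusted p = 1.91e-13). Cx3cr1 was at 19.0, 21.5 and 24.8 normalized TPM in M0 and at 1.13, 0.854 and 0.919 in M1, a 21.9-fold decrease (log2 -4.46 ± 0.15 SE, adjusted p = 3.38e-11). For both genes every M1 culture was below every M0 culture. Adgre1 (log2 0.37 ± 0.06 SE, adjusted p = 0.000176) and Cd68 (log2 -0.51 ± 0.05 SE, adjusted p = 1.76e-06) passed the adjusted p but moved by less than 2-fold. Lyve1 did not pass (log2 -0.84 ± 0.45 SE, adjusted p = 0.102), with 3 to 5 counts in the M1 libraries.

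In M2, 7 of the 10 members changed, of which 1 rose and 6 fell, where 22.3% of the 12976 genes tested were called, 11% as higher and 11.3% as lower. The M1 and M2 comparisons share the M0 cultures, so their values are given side by side and their overlap is not read as a result. Fcgr1 rose to 345, 264 and 283 normalized TPM in M2, a 2.27-fold increase (log2 1.18 ± 0.10 SE, adjusted p = 1.03e-06). Itgam fell to 76.2, 81.5 and 85.7 normalized TPM, a 2.95-fold decrease (log2 -1.56 ± 0.07 SE, adjusted p = 9.33e-09). Each of these M2 ranges lay outside the M0 range.

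Gpr34 was at 1.46, 1.64 and 1.37 normalized TPM in M2 (log2 -6.15 ± 0.11 SE, adjusted p = 2.12e-11), a 71.0-fold decrease. Cx3cr1 was at 0.963, 0.889 and 1.23 normalized TPM (log2 -4.43 ± 0.15 SE, adjusted p = 8.85e-10), within the range seen in M1 or just above it. Cd163 was at 1.074, 1.284 and 1.0712 normalized TPM (log2 -3.78 ± 0.11 SE, adjusted p = 4.33e-10). CD163 protein is often used as a marker of alternatively activated macrophages, and here its transcript was lower in all 3 IL-4 cultures than in all 3 M0 cultures.

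Adgre4 was at 4.15, 2.51 and 3.99 normalized TPM in M2, a 6.47-fold decrease from M0 (log2 -2.69 ± 0.14 SE, adjusted p = 1.80e-08). Lyve1 had 39 counts over the M0 libraries and 3 over the M2 libraries, a ratio of 12.7 (95% exact counting interval 4.04 to 64.2). It passed the test (adjusted p = 0.000398) at levels far below those of the other members. Adgre1 (log2 -0.66), Csf1r (log2 -0.56) and Cd68 (log2 -0.29) changed by less than 2-fold, each with a smaller adjusted p than Lyve1.

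M1 and M2 were also compared directly, and 5 of the 9 members tested were called, against 48% of 12934 genes (20.1% higher in M1 and 27.9% lower). Itgam was 11.9-fold (log2 3.57 ± 0.07 SE, adjusted p = 8.99e-15) and Fcgr1 4.37-fold (log2 2.13 ± 0.09 SE, adjusted p = 1.37e-11) higher in M1. Adgre4 (202, 119 and 184 counts in M2, at most 2 in M1), Cd163 and Csf1r were lower in M1. The counting ratio of M2 to M1 was 61.7 (26.3 to 191) for Adgre4 and 16.1 (7.68 to 40.7) for Cd163, and the Csf1r log2 change was -1.24 ± 0.07 SE (adjusted p = 2.86e-10). Cd68 (log2 -0.31), Adgre1 (log2 0.94) and Gpr34 (2.10-fold lower) passed the adjusted p but were under the fold threshold, Gpr34 because of the 1 added count. Cx3cr1 did not pass (log2 -0.13 ± 0.23 SE, adjusted p = 0.611). Without M1 replicate 2, the count was 7.

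Other macrophage lists, read against the 46.1% of all genes called in M1 and the 22.3% called in M2, had calls in both directions. Of 18 pan-macrophage genes, 7 rose and 2 fell in M1, including a 12.04-fold rise of Fcgr4 and a 4.75-fold rise of the LPS co-receptor Cd14, and falls of Trem2 (5.58-fold) and Lyz2 (2.80-fold). In M2, 2 of them rose and 5 fell, with Lgals3 4.33-fold and Ctss 2.08-fold higher, and Cd14 3.47-fold and Lyz2 3.09-fold lower. Of 8 tested tissue-resident macrophage genes, 1 rose in M1 (Folr2, 2.78-fold) and 4 fell, among them F13a1 (108-fold) and the mannose receptor gene Mrc1 (17.3-fold). In M2, 3 fell, among them F13a1 (15.5-fold) and Stab1 (5.97-fold), and 0 rose.

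Of 8 monocyte genes, 2 rose in M1, including Itgal (4.74-fold), and 3 fell, including Chil3 (11.96-fold) and Ccr2 (8.99-fold). In M2, 3 rose, including Chil3 (8.36-fold) and Vcan (3.12-fold), and Ccr2 fell 2.14-fold. Microglia-type genes, receptors and enzymes enriched in brain macrophages, had 4 of 7 tested lower and 0 higher in M1, with P2ry12 9.19-fold lower. In M2, 3 were lower, with P2ry12 5.49-fold lower, and Olfml3 was 2.63-fold higher. Among 10 lineage ligands and transcription factors, 4 rose and 2 fell in M1. They included Klf4 (23.6-fold higher), Nr1h3 (12.4-fold higher) and Cebpa (8.30-fold lower). In M2, 3 rose, including Nr1h3 (7.95-fold) and Klf4 (4.91-fold).

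The digit and BMDM tables were normalized separately, so levels set across them are not tested. For 8 members every digit was listed below every M0 culture, and the exceptions were Lyve1 and Cd163. Cd68 ranged from 4.35 to 63.6 normalized TPM over the 41 digits, with a median of 18.4, and Csf1r from 3.20 to 67.3, with a median of 10.7. Both maxima are in NR replicate 2 at 14 days, and the highest values of the other digits were 59.4 and 37.5, both in NR replicate 4 at 7 days. On the CPM scale Cd68 was at 28.0 in the former digit and 41.4 in the latter, and Csf1r at 101 and 83.8. Lyve1 had the median 11.8 normalized TPM (1.084 to 43.8), above every BMDM library, which reached at most 0.513. Cd163 had the median 7.19 (0.686 to 28.5), Itgam 6.61 (2.40 to 27.5) and Adgre1 2.83 (0 to 23.2). Fcgr1, Cx3cr1 and Gpr34 had medians of 1.61, 1.30 and 0.957 normalized TPM.

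Adgre4 was hardly detected, with at most 13 counts in any digit and 0 in 17 of the 41. A digit at 0 counts allows up to 3 counts, which is 0.490 CPM at the depth of NR replicate 2 at 7 days and 2.04 CPM at that of NR replicate 3 at 3 hours. In these mixed tissues, fewer macrophages and less RNA per macrophage cannot be told apart. Lyve1 is also expressed by lymphatic endothelium, Itgam by neutrophils, and Csf1r and Cd68 by osteoclasts, and markers of those cells are given beside these genes.

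**Figure D2:**
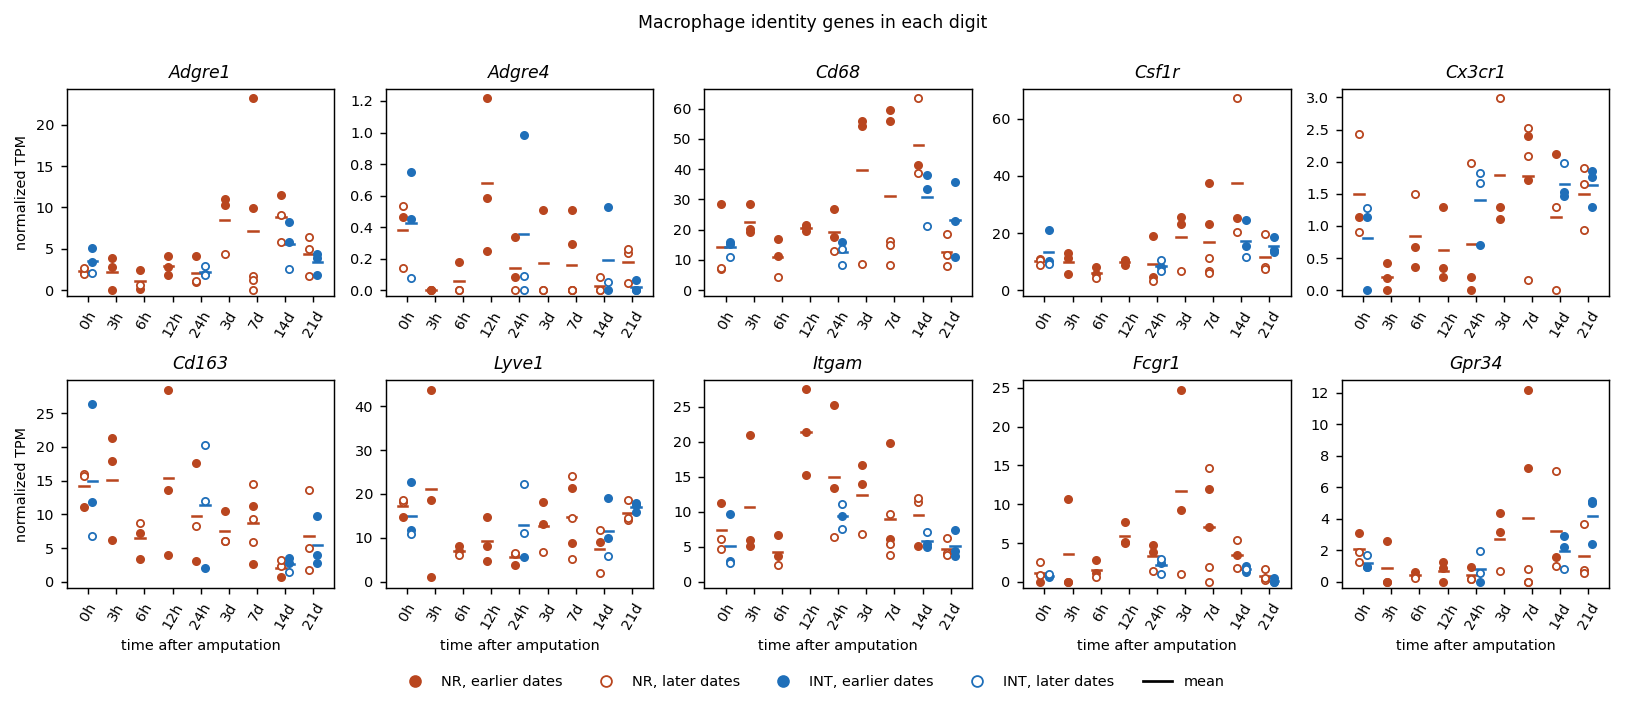
Normalized TPM of each gene (1 panel each, own scale) against time after amputation. Points are digits, red for NR and blue for INT, filled for the earlier and open for the later label dates, and short lines are group means. Digits of one time point spread widely, and at 7 days the 2 filled points of Cd68, Csf1r, Adgre1 and Gpr34 lie above the 3 open ones.

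The time course of the NR digits was examined by comparing each time with the same 3 digits at 0 hours, so these comparisons share controls. Within the first day Itgam and Fcgr1 rose at 12 hours, and Lyve1 fell at 6 and at 24 hours. At every other time 0 members were called.

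Itgam was at 11.2, 4.63 and 6.15 normalized TPM at 0 hours and at 27.5, 15.3 and 21.4 at 12 hours. All 3 digits at 12 hours lay above those at 0 hours. The increase was 3.21-fold (log2 1.68 ± 0.24 SE, adjusted p = 0.00392), and Itgam was 1 of 2 members called of 8 tested, where 11.4% of 13075 genes were called, 6.76% as higher and 4.64% as lower. Neutrophil markers moved with it: 6 of the 6 tested of 10 rose at 12 hours, and their sum went from 21.04 to 30.41 normalized TPM at 0 hours to 412 to 1138 at 12 hours. Of the 10, Ly6g, Ngp and Camp were at 0 in every digit at 12 hours. Their part in the Itgam change was not tested.

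Fcgr1 had 0, 6 and 9 counts at 0 hours and 38, 28 and 32 counts at 12 hours, or 0, 0.869 and 2.60 against 7.73, 4.96 and 5.17 normalized TPM. The groups did not overlap (log2 3.35 ± 0.80 SE, adjusted p = 0.0249). The call was lost without 0-hour replicate 2 (adjusted p = 0.0941) or 3 (0.0594) and without 12-hour replicate 1 (0.0754) or 3 (0.0848).

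All 3 digits at 12 hours carry earlier dates, whereas 2 of the 3 at 0 hours carry later ones. Each of the 3 digits at 12 hours shares its animal mark, date and side with a digit at 0 hours. For replicate 3 that digit is NR replicate 1, and for replicates 1 and 2 it is INT replicate 2 and INT replicate 3. In 1 fit of all 41 digits with the date period as a term, the log2 change was 1.30 for Itgam (adjusted p = 0.271) and 2.41 for Fcgr1 (adjusted p = 0.440), and neither was called. Without the date term the same fit gave 1.66 for Itgam (adjusted p = 0.111) and 3.38 for Fcgr1 (adjusted p = 0.189), also without a call. Among the earlier dates alone, Itgam was at 11.2 normalized TPM in the only digit at 0 hours (log2 1.44, adjusted p = 0.330), and Fcgr1 was at 0 there.

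Lyve1 was at 14.7, 18.1 and 18.6 normalized TPM at 0 hours and at 7.04, 8.18 and 6.10 at 6 hours. No digit of either group reached the range of the other, and the decrease was 2.74-fold (log2 -1.45 ± 0.21 SE, adjusted p = 0.0110). It was the only member called of 8 tested at 6 hours, where 4.85% of 13168 genes were called, 3.23% as higher and 1.62% as lower. At 24 hours Lyve1 was at 3.83, 6.63 and 6.31 normalized TPM, a 3.04-fold decrease (log2 -1.60 ± 0.29 SE, adjusted p = 0.00881), and was again the only member called, against 10.7% of 13420 genes (5.57% higher and 5.14% lower).

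The 24-hour call held without any 1 digit. The 6-hour call was lost without 0-hour replicate 2 (adjusted p = 0.0623) or 3 (0.0692) or 6-hour replicate 2 (0.0541), and both were lost when all 41 digits were fitted together, without the date period (log2 -1.45 and -1.61, adjusted p = 0.504 and 0.281) or with it (log2 -1.44 and -1.60, adjusted p = 0.488 and 0.292). Within 1 date period each comparison has a single digit in 1 group. The log2 change was -1.19 at 6 hours and -1.49 at 24 hours for the earlier dates and -1.52 and -1.45 for the later ones, and the lack of a call there says little.

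Lymphatic endothelial markers did not move as 1 group beside Lyve1. Of the 5 tested at 6 hours, 1 rose and 1 fell, and of the 6 tested at 24 hours, 1 rose and 2 fell. Their sum was 16.6 to 43.4 normalized TPM at 0 hours, 22.5 to 43.8 at 6 hours and 45.4 to 81.6 at 24 hours, and each of the 6 was detected in both groups. Mmrn1 fell 7.05-fold at 6 hours and 15.2-fold at 24 hours, and Ccl21a fell 5.82-fold at 24 hours. The marker that rose at both times was Pdpn, 5.13-fold and 13.5-fold. Pdpn was also 51.3-fold higher in M1 than in M0 BMDMs, and the 6 markers summed to 190 to 234 normalized TPM in M1. The sum is thus not specific to lymphatic endothelium. The part of lymphatic endothelium in the Lyve1 change was not tested.

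At 3 days the level of Adgre1 was 10.97, 4.35 and 10.24 normalized TPM, above the 2.10, 1.99 and 2.69 of the 0-hour digits without overlap. Its log2 change was 1.90 ± 0.41 SE (adjusted p = 0.0944). Cd68 was at 55.9, 8.65 and 54.1 normalized TPM, against 28.4, 6.97 and 7.36 at 0 hours, so the groups overlapped (log2 1.68 ± 0.69 SE, adjusted p = 0.420). Csf1r was at 23.2, 6.79 and 25.5 normalized TPM, against 11.1, 10.5 and 8.78 (log2 0.91 ± 0.43 SE, adjusted p = 0.495).

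Replicate 2, the low digit for all 3 genes, is the only one at 3 days with a later date. With edgeR 0 of 8 members were called at 3 days, where 0.723% of 13286 genes were, with 5 members at an unadjusted p under 0.05. DESeq2 called 2, Adgre1 (log2 1.91, adjusted p = 0.00184) and Lyve1 (log2 -1.23, adjusted p = 0.00949), and edgeR without replicate 2 called 2, Adgre1 and Csf1r. Against 24 hours, 0 members were called at 3 days (2 at an unadjusted p under 0.05, 1 by DESeq2), where 2.76% of 12974 genes were. Without replicate 2, edgeR called Cd68 and Fcgr1 in that comparison.

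At 7 days the 5 digits spread more than at any other time for Adgre1, with 9.93, 0, 1.68, 23.2 and 1.22 normalized TPM in replicates 1 to 5. Gpr34 was at 7.22, 0, 0.836, 12.2 and 0, Csf1r at 23.0, 6.79, 5.85, 37.5 and 11.3, and Cd68 at 55.9, 16.2, 8.20, 59.4 and 15.1. In all 4 genes replicates 1 and 4, which carry earlier dates, were above replicates 2, 3 and 5, which carry later ones. Cd163 did not divide this way, at 2.62, 14.5, 9.31, 11.3 and 5.91 normalized TPM. With edgeR 0 of 9 members were called (0 at an unadjusted p under 0.05, 0 by DESeq2), where 0.0537% of 13046 genes were.

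At 14 days Cd163 was at 0.686, 2.39 and 3.28 normalized TPM in the NR digits, against 11.1, 15.9 and 15.7 at 0 hours. This was the lowest group mean of the NR time course, and the groups did not overlap. The log2 change was -3.18 ± 0.68 SE (adjusted p = 0.229), and in CPM the digit with the unusual scaling had 2.43, between the 1.70 and 7.12 of its group. With edgeR 0 of 8 members were called (4 at an unadjusted p under 0.05), where 0% of 13567 genes were called. The count was also 0 without NR replicate 3, whose label shares its mark, date and side with an INT digit of this time.

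DESeq2 called Cd163 (adjusted p = 0.000374), as did edgeR with all 41 digits in 1 fit (log2 -3.17, adjusted p = 0.0197). With the date period in that fit 3 members were called: Cd163 (log2 -3.20, adjusted p = 0.0187), Cd68 (log2 1.999, adjusted p = 0.0113) and Csf1r (log2 1.64, adjusted p = 0.0480). Cd68 was at 41.3, 63.6 and 38.7 normalized TPM in the NR digits at 14 days, or 28.1, 28.0 and 25.4 CPM, against 15.4, 4.99 and 5.03 CPM at 0 hours. Csf1r was at 54.9, 101 and 46.0 CPM, against 24.28, 24.18 and 20.004 CPM.

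Osteoclast markers were also highest at 14 days. Their sum over 6 markers was 481 to 673 normalized TPM, against 26.4 to 61.5 at 0 hours, with Calcr at 0 in both groups. The osteoclast protease gene Ctsk was called in the NR digits at 7 days (10.1-fold, adjusted p = 0.0177) and 21 days (8.41-fold, adjusted p = 0.0331), but no gene of any kind was called at 14 days. Fibroblast markers summed to 4295 and 6832 normalized TPM in NR replicates other than 2 at 14 days, and to 11262 in replicate 2 with its unusual scaling, against 493 to 1062 at 0 hours. Their part in the levels of Cd68, Csf1r and Cd163 was not tested.

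At 21 days 0 of 8 members were called (0 at an unadjusted p under 0.05, 0 by DESeq2), where 0.452% of 13712 genes were, and the 3 NR digits all carry later dates. At 3 hours 0 of 8 were called as well (0 at an unadjusted p under 0.05, 0 by DESeq2), where 0% of 12562 genes were.

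In the INT digits 0 members were called at any time against 0 hours. At 14 days Cd163 was at 1.41, 3.57 and 2.82 normalized TPM, against 6.74, 11.8 and 26.4 at 0 hours, with no overlap (log2 -2.51 ± 0.55 SE, adjusted p = 0.0676). Cd68 was at 21.1, 38.1 and 33.5 normalized TPM, against 11.04, 15.32 and 15.96, again with no overlap (log2 1.18 ± 0.29 SE, adjusted p = 0.0974). DESeq2 called both (adjusted p = 3.16e-05 and 0.0125), edgeR without INT replicate 1 at 0 hours called Cd163, and edgeR without INT replicate 1 at 14 days called Cd68. Of 8 members, 3 had an unadjusted p under 0.05, where 1.68% of 13334 genes were called. Osteoclast markers summed to 345 to 442 normalized TPM, against 35.7 to 87.2 at 0 hours, and 2 of the 3 tested rose.

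At 24 hours Itgam was at 9.39, 7.50 and 11.1 normalized TPM in the INT digits, against 2.68, 2.95 and 9.69 at 0 hours, and the groups overlapped (log2 0.83 ± 0.48 SE, adjusted p = 0.437). With edgeR 0 of 7 members were called (0 at an unadjusted p under 0.05, 0 by DESeq2), where 0.0152% of 13172 genes were. At 21 days Gpr34 was at 5.02, 2.39 and 5.16 normalized TPM, against 1.73, 0.951 and 0.942 at 0 hours, without overlap (log2 1.71 ± 0.54 SE, adjusted p = 0.162). There 0 of 8 members were called (2 at an unadjusted p under 0.05, 0 by DESeq2), where 1.39% of 13360 genes were.

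**Figure D3:**
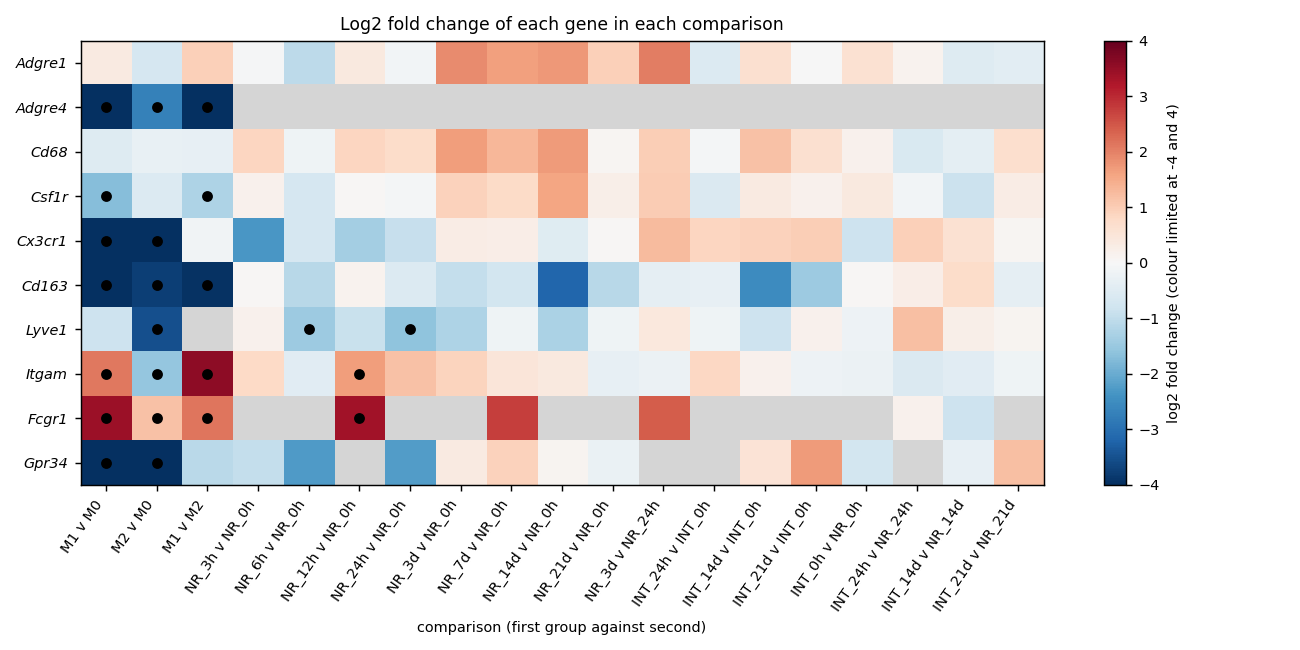
Log2 fold change of each gene (rows) in the 19 comparisons (columns), red for higher and blue for lower in the first group named, with the colour limited at -4 and 4. Black dots mark calls and grey cells were not tested because counts were too low. The 3 macrophage comparisons hold 19 of the 23 calls, and the 4 in digits are Itgam and Fcgr1 at 12 hours and Lyve1 at 6 and 24 hours.

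INT and NR digits of the same time were compared to ask whether the identity genes follow the amputation level. With edgeR 0 members were called at 0 hours (0% of 13500 genes), 24 hours (0% of 13024), 14 days (0% of 13421) and 21 days (0.648% of 13736). DESeq2 called 0 at each time. In all 4 comparisons 1 member had an unadjusted p under 0.05, Lyve1 at 24 hours, which was at 5.56, 11.2 and 22.3 normalized TPM in the INT digits and at 3.83, 6.63 and 6.31 in the NR digits. The ranges overlapped (log2 1.22 ± 0.51 SE, adjusted p = 0.432). It was called without INT replicate 1, the only INT digit at 24 hours with an earlier date. At 21 days all INT digits had earlier and all NR digits later dates, so group and period cannot be told apart.

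The whole time course was then tested at once. In the NR digits 0 of 9 members varied over time at an adjusted p under 0.05 with edgeR, where 7.62% of 14434 genes did. At an unadjusted p under 0.05 there were 3, and in edgeR's test across all genes their adjusted p was 0.101 for Itgam, 0.109 for Cd163 and 0.153 for Fcgr1. DESeq2 called 5, those 3 with Cd68 and Csf1r, and edgeR with the date period as a term called Cd68 and Csf1r. Without NR replicate 3 at 3 hours, the shallowest library, edgeR called Fcgr1 and Itgam.

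In the INT digits 0 of 9 members varied over time (2 at an unadjusted p under 0.05, 1 by DESeq2), where 6.21% of 14004 genes did. The interaction of group and time, the test of a different course in INT and NR digits, gave 0 of 9 members (0 at an unadjusted p under 0.05, 0 by DESeq2), and 0% of 14768 genes passed.

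The label dates were examined after the values at 3 and 7 days had been seen, so those digits are no independent evidence. In a fit of all 41 digits with group and time as terms, 4 of the 10 members were lower in the 17 digits of the later dates, where 3.09% of 14996 genes were, and 0 were higher, where 5.14% of genes were. Cd68 differed by log2 -1.28 ± 0.23 SE (adjusted p = 0.000308), Csf1r by -0.96 ± 0.25 (adjusted p = 0.0138), Adgre4 by -2.91 ± 0.79 (adjusted p = 0.0171) and Adgre1 by -1.45 ± 0.47 (adjusted p = 0.0489). Of 14996 genes, 8.23% were called either way. Depth went along with the dates: total counts were 4667156 to 13011782 in the later digits and 1468749 to 9462144 in the earlier ones. The part of depth in the difference was not tested. The Adgre1 call held in 9 of 41 fits that each left out 1 digit, the Csf1r and Adgre4 calls in 40 of 41 and the Cd68 call in 41 of 41. Without NR replicate 2 at 3 days 2 members were called, Adgre4 and Cd68, and the Adgre4 call was lost without INT replicate 1 at 24 hours (adjusted p = 0.0562). When all digits at 3 and 7 days were left out, only Cd68 was called (log2 -0.83, adjusted p = 0.0331), and Csf1r (log2 -0.55, adjusted p = 0.380), Adgre1 (log2 -0.78, adjusted p = 0.425) and Adgre4 (log2 -2.28, adjusted p = 0.173) were not.

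The split is shown for Cd68. Of 9 groups with digits of both periods, every later digit was below every earlier one in 8, and the exception was NR at 14 days. For Csf1r this was so in 7 of 9 groups, for Gpr34 in 6 and for Adgre1 and Itgam in 5. For Cx3cr1 every later digit was above every earlier one in 6 groups and for Cd163 in 4. The reverse of these directions was seen in 2 groups each for Gpr34, Itgam and Cd163 and in 1 for Cx3cr1. Most of these groups hold 1 digit against 2, so such splits are common. Of 13691 genes with a mean of at least 1 normalized TPM, 2.89% were below in 8 or more groups and 7.59% in 7 or more. The shares were 15.5% for 6 or more and 27.2% for 5 or more. In the other direction, 13.3% were above in 6 or more groups and 32.7% in 4 or more. Cd163 (log2 0.27 ± 0.42 SE, adjusted p = 0.763), Lyve1 (log2 0.03 ± 0.35 SE, adjusted p = 0.979) and Cx3cr1 (log2 0.89 ± 0.51 SE, adjusted p = 0.322) did not pass. Itgam (log2 -0.56), Fcgr1 (log2 -1.06) and Gpr34 (log2 -1.25) did not pass either.

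In the 29 NR digits alone the Cd68 and Csf1r log2 differences were -1.64 (adjusted p = 0.00112) and -1.17 (adjusted p = 0.0443). In the 12 INT digits alone they were -0.57 (adjusted p = 0.384) and -0.55 (adjusted p = 0.354), with 0 members called. Other lists went down with these members: 6 of 18 pan-macrophage genes were lower at the later dates, including Mpeg1 (4.17-fold) and Tyrobp (3.50-fold), and 0 were higher. Of 8 monocyte genes 3 were lower, including Itgal (3.61-fold) and Fn1 (2.03-fold), and of 10 tissue-resident genes 0 were called. Blood endothelial markers were lower in 2 of 5, fibroblast markers in 2 of 4 and lymphatic endothelial markers in 1 of 6, whereas 0 of 8 tested neutrophil markers and 0 of 5 tested osteoclast markers were called. The part of these cells, or of the sampling itself, in the difference was not tested.

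**Figure D4:**
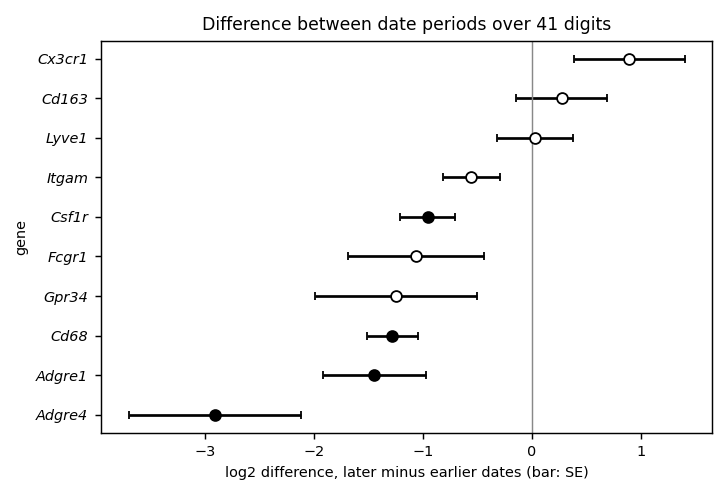
Log2 difference between digits of later and earlier label dates for each gene, from 1 fit of 41 digits, with the SE as bars. Filled points passed an adjusted p of 0.05. Cd68, Csf1r, Adgre1 and Adgre4 lie below 0, whereas Lyve1, Cd163 and Cx3cr1 lie at or above it.

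The other macrophage lists in the digits had most of their calls at 12 and 24 hours, as did all genes tested. In NR digits 11.4% of all genes were called at 12 hours, 6.76% as higher and 4.64% as lower. At 24 hours 10.7% were called, and at 6 hours 4.85%. At 12 hours 5 of 17 tested pan-macrophage genes rose, including Cd14 (26.1-fold) and the signalling adaptor Tyrobp (8.87-fold), and 4 of 8 monocyte genes rose, including Chil3 (9.45-fold) and Plac8 (4.88-fold). The resident-macrophage factor Maf fell 2.53-fold, 1 of 7 tested tissue-resident genes, and of the 6 tested microglia-type genes only Olfml3 fell (2.53-fold). Among lineage factors Csf1 (2.17-fold) and Cebpb (2.04-fold) rose, and Klf4 (2.53-fold) and Cebpa (2.13-fold) fell. At 24 hours Cd14 (18.1-fold) and Chil3 (12.05-fold) were higher, and Pf4 (4.04-fold) and P2ry12 (8.04-fold) were lower. At 6 hours C1qa (2.34-fold) and F13a1 (2.41-fold) were lower. In the INT digits at 14 days Ms4a7 (6.16-fold), Tmem119 (5.16-fold) and Olfml3 (2.52-fold) were higher, where 1.68% of all genes were called. At 3 hours and at 3, 7 and 14 days, 0 genes of these 5 lists were called in the NR digits against 0 hours. Over all genes the shares at these times were 0%, 0.723%, 0.0537% and 0%.

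Across the 41 digits the members did not share 1 pattern. Adgre1 and Csf1r were most alike (Spearman's rho 0.82 on normalized TPM), with 0.88 in the 24 digits of earlier dates and 0.69 in the 17 of later dates. Csf1r and Gpr34 (0.74), Csf1r and Cd68 (0.71) and Adgre1 and Gpr34 (0.68) followed. Itgam was nearest to Fcgr1 (0.55) and Cd163 to Lyve1 (0.54), whereas Cd68 and Cd163 ran in opposite directions (-0.33). These values describe digits that share time points, dates and library depth, and have no p.

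Outside the list, among 13089 named genes with a mean of at least 1 normalized TPM, Lyz2 was nearest to Csf1r (rho 0.88) and to Adgre1 (0.84). The next for Adgre1 were C1qb (0.81) and C1qc (0.80). Csf1r was followed by Sh3bgrl and Tgfb1i1 (0.83 each), and Cd68 was nearest to Cd74 (0.83), Npc2 (0.77) and Ftl1 (0.77). For Cd163 the nearest were F13a1 (0.78), Scara5 (0.70) and Scg3 (0.65), and for Lyve1 Mpdz, Sptbn1 and Abca8b (0.74 each). Itgam was nearest to Hp (0.80), Gda (0.78) and Tgm2 (0.78), and Fcgr1 to Slc16a3 (0.79), Inpp5d (0.75) and Pik3ap1 (0.75). For Gpr34 they were Dennd5a, Slc22a17 and Coro2b (0.75 each), and for Cx3cr1 Slco1a6 (0.70), Osbp (0.70) and Tmem5 (0.69). Adgre4, with its few counts, reached at most 0.61, with Zfp607a, then Isg20 (0.59) and Dock2 (0.58).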

How the data were processed

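RNA-seq libraries of 41 wound beds and 9 BMDM cultures were sequenced. The authors mapped reads to mouse gene sequences (build mm10, per the labels), estimated counts with RSEM 1.2.3, and deposited expected counts per gene and normalized TPM, a signal rescaled between libraries by the median of ratios. Groups, replicates and dates came from the sample titles. Expected counts were rounded and tested in R 4.3.3 with edgeR 4.0.16 (filterByExpr with a minimum count of 10, TMM, quasi-likelihood fits, Benjamini-Hochberg adjustment over all tested genes), 1 pair of groups at a time, after checks on simulated data. Calls needed an adjusted p under 0.05 and a 2-fold change of mean normalized count plus 1 in pairs, and the adjusted p alone in tests of the time course or dates. The study used EBSeq, which was not run here. DESeq2 1.42.0, RLE scaling, no filter, other samples in the fit, the date period and leaving out each library were alternatives. Levels between genes were compared on normalized TPM. In the files for digits, 26 gene names that had turned into dates were restored from transcript lists. Positions and overlaps came from the GENCODE annotation of GRCm38.

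All 10 members could be named. From each other macrophage list the called genes with the largest change, at most 2 in each direction, could be named, and the 3 genes most like each member by Spearman's rho. The members and lists were chosen with earlier results of these data known. No 2 replicates of a group agreed within counting noise. Total counts limit precision most in digits for Adgre4, Fcgr1 and Gpr34, which the filter removed from some or most comparisons.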

Additional observations from a re-analysis of the deposited data

How the results depend on the processing

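The 3 macrophage counts (7, 7 and 5) did not leave 1.5 times their value under RLE scaling, no filter, DESeq2, the replicate block or leaving out a library (ranges 7 to 7, 7 to 7 and 5 to 7), and all 19 calls held in 11 of 11 alternatives. Without the fold threshold M1 against M2 gave 8. Macrophage replicate numbers did not pair the cultures (correlations of deviations -0.0702 to 0.07196 for 9 pairs with the same number and -0.0592 to 0.113 for 18 others), and the paired fit with a replicate block gave 7, 7 and 5.

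Digit counts depended on the fit. DESeq2 gave 2 at 6 hours, 24 hours and 3 days, 1 at 14 days and 1 at 3 days against 24 hours in NR digits, 2 at 14 days in INT digits, and 5 and 1 over the NR and INT time courses. All digits in 1 fit gave 0 at 6, 12 and 24 hours and 1 at 14 days, and with the date period 0, 0, 0 and 3. Earlier dates alone gave 0 at 6, 12 and 24 hours, and later dates alone 0 at 6 and 24 hours (both chosen after seeing the data), but each of these fits has a group of 1 digit, so the counts of 0 say little. INT at 14 days gave 1 without a filter, and the NR time course gave 2 with the date period as a term. The date test gave 2 in NR and 0 in INT digits, and 1 with the digits at 3 and 7 days left out.

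Leaving out 1 digit gave 0 to 1 members at 6 hours, 1 to 3 at 12 hours, 1 to 2 at 24 hours, 0 to 2 at 3 days, 0 to 2 at 3 days against 24 hours, 0 to 1 in INT at 14 days, 0 to 1 between INT and NR at 24 hours, 0 to 2 and 0 to 1 over the NR and INT time courses, and 2 to 4 between dates. At 24 hours the second call was Cd68 without 0-hour replicate 1, Itgam without 24-hour replicate 2 and Csf1r without 24-hour replicate 3. The other comparisons stayed at 0, and no call changed sign under any alternative. The causes were not tested.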
